A study of Mus musculus with 20 samples.

Results

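The aldehyde dehydrogenases measured here were 10 genes of mouse liver, Aldh1a1, Aldh1a7, Aldh1b1, Aldh1l1, Aldh2, Aldh3a2, Aldh4a1, Aldh6a1, Aldh8a1 and Aldh9a1. They were taken by name: every probe set whose gene symbol in the platform annotation was exactly one of these was used, which gave 17 of 45037 probe sets and 10 of 18193 genes. The array study asked which effects of CMP013, an inhibitor of the protease BACE1, depend on the pregnane X receptor (PXR). Male mice, 9 weeks old at the start, were given CMP013 at 150 mg/kg or the vehicle alone by oral gavage every 24 h, and livers were collected at 96 h after a short fast. There were 4 groups of 5 animals with 1 array per animal: WT mice given CMP013, WT mice given vehicle, PXR-KO mice given CMP013 and PXR-KO mice given vehicle. The WT animals were C57Bl/6 (PXR+/+), and the knockout animals, which lack PXR, were C57Bl/6NTac (PXR-/-). The strain names of the 2 genotypes differ, so genotype and substrain cannot be told apart, and 1 dose and 1 time were profiled.

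Aldehyde dehydrogenases oxidize aldehydes, which are reactive, to carboxylic acids with NAD+ or NADP+ as the electron acceptor. In liver they clear aldehydes from alcohol, lipids and drugs, and several of them are also fixed steps in retinoid, amino acid, folate and carnitine metabolism. PXR is a nuclear receptor of hepatocytes that is switched on by many drugs and steroids and raises transcription of genes for drug oxidation, conjugation and transport, some of which it shares with the related receptor CAR.

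Aldh1a1 and Aldh1a7 are neighbours on chromosome 19 (GRCm38.p6), Aldh1a1 at chr19:20492583-20643463 and Aldh1a7 at chr19:20692953-20727556, with 49490 bases and 0 whole RefSeq genes between them. The RefSeq promoter windows, 250 bases before an annotated start, are shown because both genes carried the clearest difference between genotypes. The windows are chr19:20601718-20601967 on the plus strand for Aldh1a1, at the annotated start nearer to Aldh1a7, and chr19:20727557-20727806 on the minus strand for Aldh1a7. Capitals mark the 65 bases that are identical in both, at positions -94 to -30 counted from the start.
Aldh1a1 promoter: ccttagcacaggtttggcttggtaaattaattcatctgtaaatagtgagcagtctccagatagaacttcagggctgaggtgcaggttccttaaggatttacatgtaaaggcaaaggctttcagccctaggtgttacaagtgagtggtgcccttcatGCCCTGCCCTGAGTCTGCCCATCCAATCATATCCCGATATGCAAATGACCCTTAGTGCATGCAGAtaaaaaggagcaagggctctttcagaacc
Aldh1a7 promoter: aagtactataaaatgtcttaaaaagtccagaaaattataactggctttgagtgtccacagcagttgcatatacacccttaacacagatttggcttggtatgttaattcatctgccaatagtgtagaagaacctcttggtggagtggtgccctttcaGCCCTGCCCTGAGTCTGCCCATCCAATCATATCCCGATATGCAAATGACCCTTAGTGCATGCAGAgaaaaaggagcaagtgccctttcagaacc
The 2 windows aligned with 176 identical bases (65.7% identity), and the shared run occurred in 2 of 32851 RefSeq windows, these 2. Against the farther annotated start of Aldh1a1 the identity was 50.9% and the longest shared run was 8 bases. In all, 5 short motifs were looked for on both strands, and matches are letters in a window, not sites of binding. The capitals hold CCAAT, found in 33.8% of all windows, and ATGCAAAT, found in 1.60% of all windows and also in the Aldh8a1 window. Neither window held the nuclear receptor half-sites AGGTCA (14.0% of all windows) or AGTTCA (11.8%), nor TGACNNNGC, the core of the antioxidant response element (10.2%), which in the 11 windows of the members was found for Aldh9a1 alone. Windows were at hand for 9 of the 10 genes, and Aldh2 was the gene not matched.

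The deposited value of a probe set is the log10 ratio of 1 animal to the vehicle mean (5 animals) of its own genotype, given here in log2 units. A log2 ratio of 0 is therefore the vehicle mean that the authors divided by. A log2 fold change is the mean log2 ratio of the CMP013 animals minus that of the vehicle animals, which need not be 0. Levels of 1 gene against another, detection of a probe set, and the effect of the knockout under vehicle were not analysed here, because such ratios do not hold them. The medians of the 20 arrays lay between -0.027 and 0.012, and no value of the members was missing or at the limit of the scale. Among vehicle animals, replicates 3 and 4 of WT and 2 and 4 of PXR-KO mice stood apart with array medians of -0.026 to -0.020, against -0.010 to 0.012 in the other 6. Of 15 known PXR and CAR target genes measured, 13 rose and 0 fell in WT mice, and 4 rose and 3 fell in PXR-KO mice. Of the 5 hepatocyte markers none passed the test in either genotype, in either direction. In WT mice 4 of 8 Kupffer cell, 4 of 7 sinusoidal endothelial and 2 of 8 stellate cell markers fell, and 2 of 4 neutrophil markers rose. The mean log2 ratio over the Kupffer list was -0.50 to -0.18 in WT CMP013 livers, against -0.45 to 0.17 in WT vehicle livers. Over the neutrophil list it was 0.45 to 0.82 in WT CMP013 livers and -0.41 to 0.16 in WT vehicle livers. The neutrophil list mean was 0.14 to 1.84 in PXR-KO CMP013 livers and -0.55 to 0.06 in PXR-KO vehicle livers. For the Kupffer list it was 0.28 to 0.81 in PXR-KO CMP013 livers and -0.63 to 0.60 in PXR-KO vehicle livers. The 8 Kupffer markers had a median log2 fold change of 0.04 in PXR-KO mice, with a range of -0.28 to 4.22. The list mean thus does not stand for the whole list. In PXR-KO mice 2 Kupffer markers rose (Cd68 and Marco), 1 neutrophil marker rose (S100a8), and 1 endothelial marker rose and 1 fell. Of the 4 bile duct and 6 lymphocyte markers none passed in either genotype. Over all genes 17.2% passed in WT and 4.61% in PXR-KO mice. Fewer cells of a type and less RNA per cell cannot be told apart in whole liver, and the part of these shifts in the results on the aldehyde dehydrogenases was not tested.

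In WT mice CMP013 raised 4 of the 10 genes, Aldh1a7, Aldh1b1, Aldh3a2 and Aldh1a1, by 1.77-, 1.56-, 1.31- and 1.26-fold, and lowered 0 on the probe set that stands for the gene. Aldh1a7 and Aldh1b1 were called in 18 of 18 alternative settings, Aldh1a1 in 15 and Aldh3a2 in 6, and the count of 4 was 2 after quantile normalization and without the 4 vehicle animals that stand apart. The other 6 genes, which serve amino acid, folate, carnitine and mitochondrial aldehyde metabolism, had log2 fold changes of -0.32 to 0.17 and did not pass. Over all genes 17.2% passed in WT mice (9.36% higher, 7.87% lower). A gene passed where limma's adjusted p (Benjamini-Hochberg over all probe sets) was under 0.05. CMP013 and vehicle animals did not overlap in 5 of the 10 genes, the 4 that rose and Aldh8a1, against 18.5% of all genes. The median log2 fold change was 0.07 over the 10 genes and -0.0025 over all genes. In PXR-KO mice 0 of the 10 passed, and the WT response was larger than the PXR-KO response for Aldh1a7 and Aldh1a1.

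**Figure D1:**
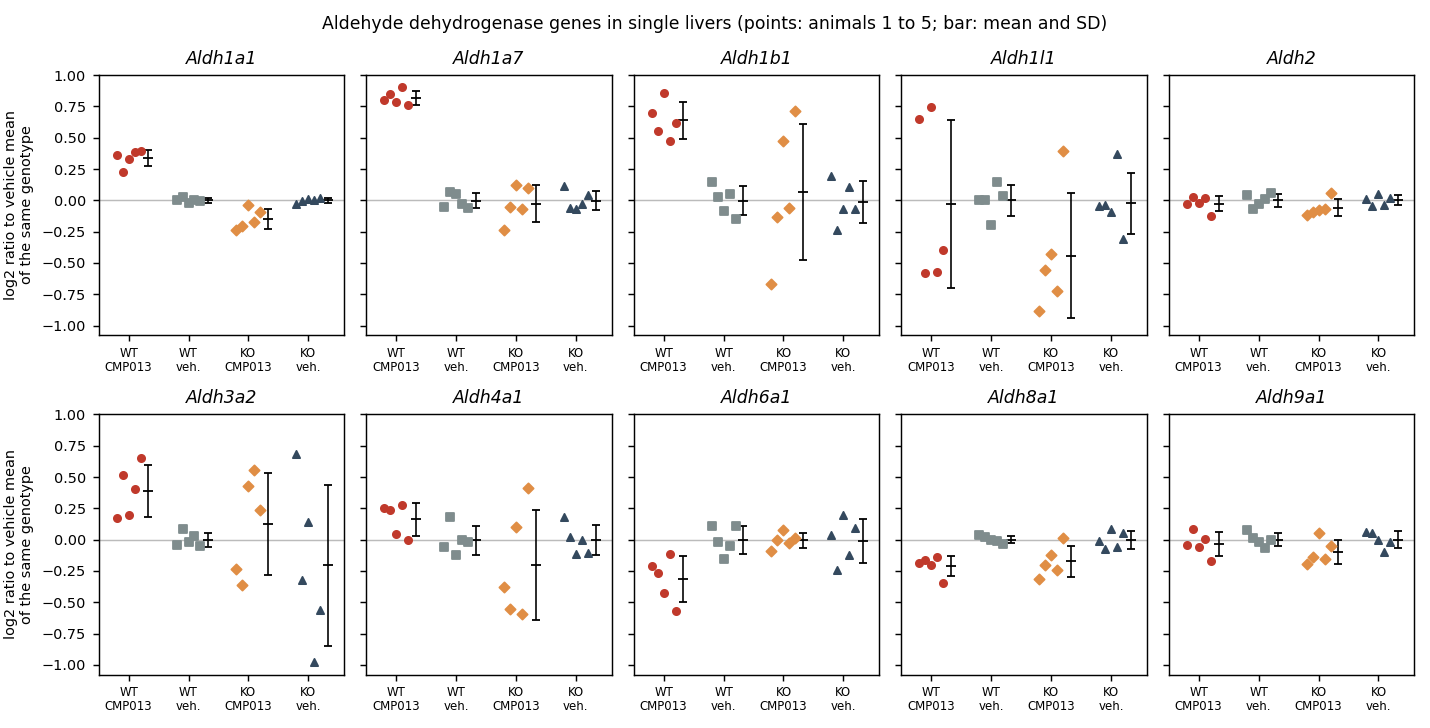
Log2 ratio to the vehicle mean of the same genotype (vertical axis) for the 10 genes, each by 1 probe set, with points for the 5 animals of a group and a bar for mean and SD. Aldh1a7 of WT CMP013 livers lies at 0.76 to 0.91 while its other 3 groups lie at -0.24 to 0.12, and Aldh1l1 of WT CMP013 livers falls into values of 0.65 and above and of -0.39 and below.

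Aldh1a1 makes the cytosolic enzyme that oxidizes retinaldehyde to retinoic acid, and Aldh1a7 makes its close paralog in rodents, which has little activity toward retinaldehyde. For Aldh1a7 (1418601_at) the log2 ratios were 0.80, 0.85, 0.79, 0.91 and 0.76 in WT CMP013 livers, against -0.05, 0.07, 0.05, -0.03 and -0.06 in WT vehicle livers. All 5 treated animals stood far above all 5 vehicle animals, with a spread as small as that under vehicle. The log2 fold change was 0.82 (SE 0.0731, limma adjusted p = 0.000113). In PXR-KO livers Aldh1a7 was -0.24, -0.06, 0.12, -0.07 and 0.10 under CMP013, against 0.11, -0.06, -0.07, -0.03 and 0.04 under vehicle. Replicate 1 under CMP013 was below all vehicle animals and replicate 3 just above them, the other 3 lay within the vehicle range, and the log2 fold change was -0.03 (95% interval -0.24 to 0.18, limma adjusted p = 0.908). The responses differed by 0.85 (SE 0.106, 95% interval 0.63 to 1.07, limma adjusted p = 4.59e-05), the largest difference among the 10 genes.

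For Aldh1a1 (1416468_at) the log2 ratios were 0.36, 0.23, 0.33, 0.38 and 0.39 in WT CMP013 livers, against 0.01, 0.03, -0.02, 0.0025 and -0.01 in WT vehicle livers. The rise was small but above all vehicle animals, whose SD was 0.0188, the smallest of the 10 genes in that group. The log2 fold change was 0.34 (SE 0.0709, limma adjusted p = 0.0113), and it was 0.24 (adjusted p = 0.113) after quantile normalization and 0.33 (adjusted p = 0.0747) without the 4 vehicle animals that stand apart. In PXR-KO livers Aldh1a1 was -0.24, -0.20, -0.04, -0.17 and -0.09 under CMP013, against -0.03, -0.01, 0.01, 0.0029 and 0.02 under vehicle. All 5 treated animals were below all 5 vehicle animals, which held for 1 of the 10 genes and for 9.56% of all genes, yet the log2 fold change of -0.15 did not pass (95% interval -0.32 to 0.02, limma adjusted p = 0.304). The difference of the responses was 0.48 (SE 0.0851, 95% interval 0.31 to 0.66, limma adjusted p = 0.00114). The 2 genes are close in sequence and probe sequences were not used here, so binding of the transcripts of both genes by either probe set was not tested.

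Around these 2 genes the retinoid and alcohol pathway moved unevenly. Of 15 alcohol and retinol dehydrogenases and related reductases, which interconvert alcohols or retinol and their aldehydes, 3 rose (Adh7, Rdh10 and Rdh11) and 3 fell (Rdh5, Rdh9 and Dhrs4) in WT mice, and 0 rose and 2 fell (Adh4 and Dhrs3) in PXR-KO mice. Rdh11, a retinaldehyde reductase, rose by 0.68 in WT mice (limma adjusted p = 0.00239) and had -0.66 in PXR-KO mice (adjusted p = 0.156), a difference of 1.35 (adjusted p = 0.0029). Rdh9, a microsomal retinol dehydrogenase, had -1.15 in WT mice (limma adjusted p = 0.00155), with 0.11 in knockouts (adjusted p = 0.506), a difference of -1.26 (adjusted p = 0.000217). Of 12 genes for retinoid transport, storage and response, 0 rose and 4 fell in WT mice (Lrat, Cyp26b1, Rxra and Stra6l), and 0 rose and 1 fell in PXR-KO mice. Beside both lists, 9.36% of all genes rose and 7.87% fell in WT mice, and 2.5% rose and 2.11% fell in PXR-KO mice. Lrat, which esterifies retinol for storage and also marks stellate cells, had a log2 fold change of -0.71 in WT mice (limma adjusted p = 0.00389), with 0.10 in knockouts (adjusted p = 0.736). The gene that fell in PXR-KO mice was Cyp26a1, which breaks down retinoic acid and is induced by it, at -1.89 (limma adjusted p = 0.0326), while WT mice had 1.29 (adjusted p = 0.102) and the difference was 3.19 (adjusted p = 0.00365).

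**Figure D2:**
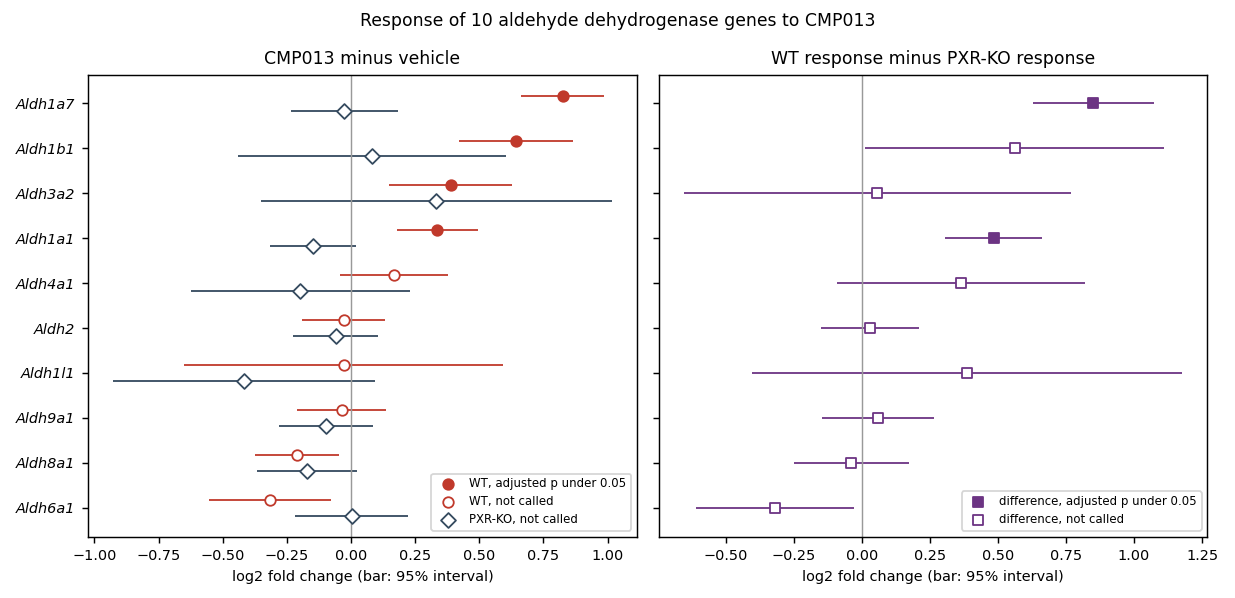
Log2 fold change of the 10 genes under CMP013 in WT and PXR-KO mice (left) and the difference of the 2 responses, WT minus PXR-KO (right), with bars for 95% intervals and filled marks for limma adjusted p under 0.05. In WT mice 4 marks are filled, in PXR-KO mice 0, and on the right only Aldh1a7 (0.85) and Aldh1a1 (0.48).

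Aldh2 and Aldh1b1 make related mitochondrial enzymes that oxidize acetaldehyde, Aldh2 being the main one for ethanol. For Aldh1b1 (1451260_at, chr4:45799022-45804608) the log2 ratios were 0.70, 0.55, 0.86, 0.47 and 0.62 in WT CMP013 livers, against 0.15, 0.02, -0.09, 0.05 and -0.15 in WT vehicle livers. The groups stood apart with no overlap, and the log2 fold change was 0.64 (SE 0.0996, limma adjusted p = 0.0024). In PXR-KO livers Aldh1b1 was -0.67, -0.13, 0.47, -0.06 and 0.71 under CMP013, against 0.20, -0.24, -0.07, 0.11 and -0.07 under vehicle. Treated PXR-KO animals ran both above and below all vehicle animals, with an SD of 0.544 under CMP013 and 0.17 under vehicle. The log2 fold change was 0.08 (95% interval -0.44 to 0.60, limma adjusted p = 0.886). The difference of the responses, 0.56 (95% interval 0.01 to 1.11), did not pass (limma adjusted p = 0.188), and it was 0.72 and passed with replicate 5 of PXR-KO CMP013 left out (adjusted p = 0.0497). Over all single animals left out it ranged from 0.38 to 0.72 (limma adjusted p of 0.0497 to 0.286). That was the 1 call in 27 alternatives.

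Aldh2 (chr5:121566027-121593824) was measured by 5 probe sets. On the steadiest, 1448143_at, the log2 ratios were -0.03, 0.02, -0.02, 0.02 and -0.13 in WT CMP013 livers, against 0.04, -0.07, -0.03, 0.01 and 0.06 in WT vehicle livers. The groups overlapped, and the log2 fold change of -0.03 had a narrow 95% interval of -0.19 to 0.13 (limma adjusted p = 0.851). In PXR-KO mice it was -0.06 (95% interval -0.22 to 0.10, limma adjusted p = 0.702). A change of the size seen for Aldh1b1 lay outside both intervals. Another Aldh2 probe set, 1457155_at, read otherwise in WT mice, with -0.62, -0.37, -1.01, -0.30 and -0.73 in WT CMP013 livers against 0.16, 0.02, -0.13, -0.21 and -0.02 in WT vehicle livers. It was lower in all 5 treated animals than in any vehicle animal, at -0.57 (SE 0.143, limma adjusted p = 0.0255), and was the 1 of the 17 probe sets that fell in WT mice, where 4 rose. Over all probe sets 14.4% passed in WT mice (7.67% higher, 6.72% lower). Its value in PXR-KO mice was -0.12 (limma adjusted p = 0.616), and its difference of -0.45 did not pass (adjusted p = 0.137). The remaining 3 Aldh2 probe sets had log2 fold changes of -0.20 to 0.03 in WT mice and -0.29 to 0.16 in PXR-KO mice, and none passed. Which part of the transcript each probe set binds was not analysed here.

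**Figure D3:**
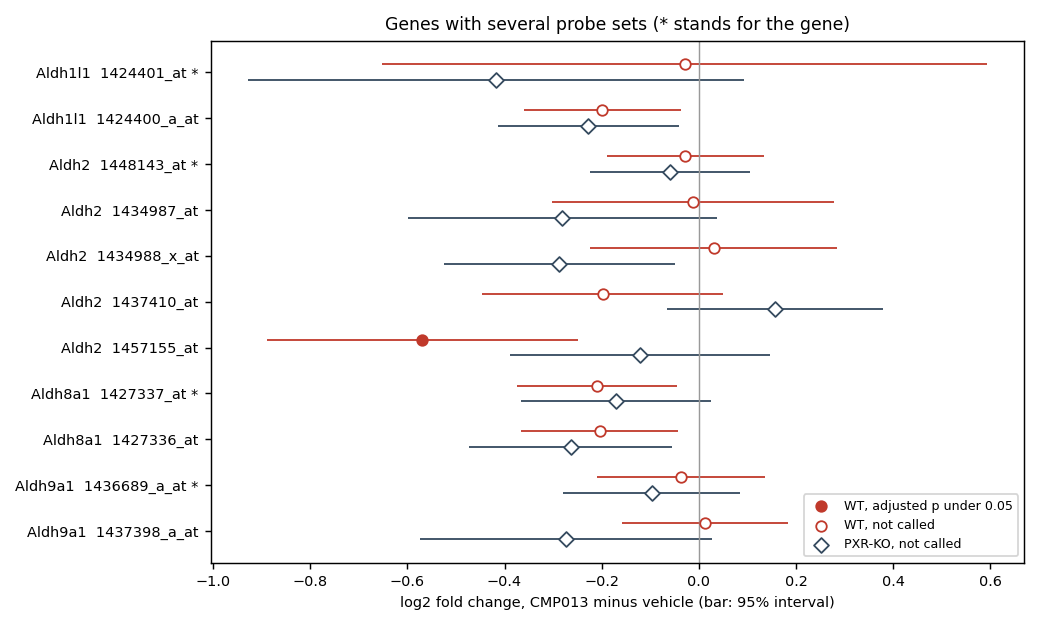
Log2 fold change under CMP013 in WT and PXR-KO mice for each probe set of the 4 genes with more than 1, with bars for 95% intervals and a star at the probe set that stands for the gene. The filled mark is the one called, Aldh2 1457155_at in WT mice (-0.57), away from the other 4 Aldh2 probe sets at -0.20 to 0.03.

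Aldh3a2 makes the fatty aldehyde dehydrogenase of the endoplasmic reticulum, which oxidizes long-chain aldehydes from fatty alcohols, phytol and sphingolipids and whose loss in humans causes Sjögren-Larsson syndrome. For Aldh3a2 (1415776_at, chr11:61223417-61267528) the log2 ratios were 0.17, 0.52, 0.19, 0.40 and 0.65 in WT CMP013 livers, against -0.05, 0.09, -0.02, 0.03 and -0.05 in WT vehicle livers. The treated animals spread widely, but the lowest of them was above the highest vehicle animal. The log2 fold change was 0.39 (SE 0.108, limma adjusted p = 0.0374). This call was near the threshold: it was lost without any 1 of the 5 WT vehicle animals and without WT CMP013 replicate 2, 4 or 5, at log2 fold changes of 0.32 to 0.41 and adjusted p of 0.053 to 0.0836. It was also lost after quantile normalization (0.28, adjusted p = 0.155) and without the 4 vehicle animals that stand apart (0.39, adjusted p = 0.135).

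In PXR-KO livers Aldh3a2 was -0.24, -0.36, 0.43, 0.56 and 0.24 under CMP013, against 0.68, -0.32, 0.14, -0.98 and -0.56 under vehicle. The PXR-KO vehicle animals were scattered more than those of any other of the 10 genes, with an SD of 0.642, against 0.0577 in WT vehicle animals. The log2 fold change of 0.33 had a 95% interval of -0.35 to 1.02 (limma adjusted p = 0.59) and moved with single animals. Leaving out PXR-KO vehicle replicate 1 gave 0.55, leaving out replicate 4 of that group gave 0.14 and leaving out the 4 vehicle animals that stand apart gave 0.0372, and none of these passed. The difference of the responses was 0.06 (95% interval -0.65 to 0.77, limma adjusted p = 0.941). Of 9 genes that form fatty aldehydes or feed omega-oxidation, 2 rose and 3 fell in WT mice. In PXR-KO mice 0 rose and 1 fell. The shares over all genes were 17.2% in WT and 4.61% in PXR-KO mice. Sgpl1, the lyase that releases a long-chain aldehyde from sphingosine phosphate, rose by 0.61 in WT mice (limma adjusted p = 0.0271) and had -0.37 in PXR-KO mice (adjusted p = 0.0568), a difference of 0.98 (adjusted p = 0.00152). Cyp4v3, a fatty acid omega-hydroxylase, had -1.43 in WT mice (limma adjusted p = 0.00184), with -0.23 in knockouts (adjusted p = 0.313), a difference of -1.19 (adjusted p = 0.00405).

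The enzymes of amino acid breakdown did not pass in either genotype. Aldh6a1 (1448104_at, chr12:84430717-84451024), the mitochondrial methylmalonate semialdehyde dehydrogenase of valine and thymine breakdown, was -0.21, -0.26, -0.42, -0.11 and -0.57 in WT CMP013 livers, against 0.11, -0.02, -0.15, -0.05 and 0.11 in WT vehicle livers. Only treated replicate 4 lay within the vehicle range. The log2 fold change of -0.32 (95% interval -0.56 to -0.08) missed the threshold (limma adjusted p = 0.0797) and passed with all 4 groups in one fit (adjusted p = 0.0306). In PXR-KO mice it was 0.0029 (95% interval -0.22 to 0.22, limma adjusted p = 0.992), and the difference of -0.32 did not pass (adjusted p = 0.156). In the valine and branched-chain pathway around it, 0 of 19 genes rose and 7 fell in WT mice, and 0 rose and 3 fell in PXR-KO mice, where 7.87% and 2.11% of all genes fell. Acad8, the isobutyryl-CoA dehydrogenase of the valine branch, fell in both, with log2 fold changes of -0.63 in WT mice (limma adjusted p = 0.000692), with -0.57 in knockouts (adjusted p = 0.00625). Hibadh, the step just before Aldh6a1, had 0.10 in WT mice (limma adjusted p = 0.414), with -0.28 in knockouts (adjusted p = 0.141), a difference of 0.38 (adjusted p = 0.0268).

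Aldh4a1 (1452375_at, chr4:139622871-139649691), the mitochondrial enzyme that turns pyrroline carboxylate from proline into glutamate, was 0.25, 0.23, 0.05, 0.28 and -0.0036 in WT CMP013 livers, against -0.06, 0.18, -0.12, -0.0029 and -0.02 in WT vehicle livers. These groups overlapped, and the log2 fold change was 0.17 (95% interval -0.04 to 0.38, limma adjusted p = 0.294). In PXR-KO livers it was -0.38, -0.55, 0.10, -0.60 and 0.41 under CMP013, against 0.18, 0.02, -0.12, -0.01 and -0.11 under vehicle. Replicates 1, 2 and 4 were below all vehicle animals and replicate 5 was above them, so the log2 fold change of -0.20 had a 95% interval of -0.63 to 0.23 (limma adjusted p = 0.613). Of 7 genes of proline and hydroxyproline metabolism measured, 2 rose and 3 fell in WT mice, and 0 passed in PXR-KO mice. The shares over all genes were 17.2% in WT and 4.61% in PXR-KO mice. Prodh and Prodh2, the dehydrogenases that open proline and hydroxyproline breakdown, had -0.90 and -0.81 in WT mice (limma adjusted p = 0.00156 and 0.000495). Both differed from PXR-KO mice, where the values were -0.05 and -0.20 (adjusted p of the differences 0.00132 and 0.00417). Pycrl, a pyrroline carboxylate reductase, which makes proline, rose by 0.70 in WT mice (limma adjusted p = 0.00125), against -0.17 in PXR-KO mice (adjusted p = 0.442), a difference of 0.87 (adjusted p = 0.000591).

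Aldh8a1 (chr10:21377300-21396578) makes the aminomuconate semialdehyde dehydrogenase of the kynurenine pathway of tryptophan. On 1427337_at it was -0.19, -0.16, -0.20, -0.14 and -0.35 in WT CMP013 livers, against 0.03, 0.02, -0.0024, -0.01 and -0.04 in WT vehicle livers. All treated animals were below all vehicle animals on both of its probe sets, yet the log2 fold changes of -0.21 and -0.20 did not pass (limma adjusted p = 0.0908 and 0.0933). The first passed with all 4 groups in one fit (adjusted p = 0.0484) and with the mean of both probe sets (adjusted p = 0.0445). In PXR-KO mice the 2 probe sets gave -0.17 and -0.26 (limma adjusted p = 0.31 and 0.154), and the responses differed by -0.04 (95% interval -0.25 to 0.17) and 0.06. Of 10 genes of tryptophan and kynurenine breakdown, 1 rose and 2 fell in WT mice, and 0 rose and 1 fell in PXR-KO mice. The shares over all genes were 17.2% in WT and 4.61% in PXR-KO mice. Haao, the dioxygenase 2 steps upstream of Aldh8a1, fell in both, at -0.80 in WT mice (limma adjusted p = 0.00131), with -1.06 in knockouts (adjusted p = 0.0178). Afmid, the formamidase, rose by 0.82 in WT mice (limma adjusted p = 0.000497), with 0.28 in PXR-KO mice (adjusted p = 0.433).

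Aldh1l1 (chr6:90550768-90599171) makes the cytosolic formyltetrahydrofolate dehydrogenase, which removes one-carbon units from the folate pool. Its 2 probe sets disagreed in spread. On 1424401_at WT CMP013 livers had 0.65, -0.58, 0.75, -0.58 and -0.39, against 0.01, 0.01, -0.20, 0.15 and 0.03 in WT vehicle livers. Replicates 1 and 3 were above all vehicle animals and the other 3 below them, so the log2 fold change of -0.03 had a 95% interval of -0.65 to 0.59 (limma adjusted p = 0.964). In PXR-KO livers this probe set read -0.89, -0.56, -0.43, -0.72 and 0.40 under CMP013, against -0.05, -0.04, -0.10, 0.37 and -0.31 under vehicle. Replicates 1 to 4 were below all vehicle animals and replicate 5 above them. This gave a log2 fold change of -0.42, the lowest of the 10 genes in that genotype, and did not pass (95% interval -0.93 to 0.09, limma adjusted p = 0.343). With replicate 5 of PXR-KO CMP013 left out it was -0.63 (adjusted p = 0.0628), and it ranged from -0.63 to -0.31 over all single animals left out. On 1424400_a_at all treated animals were below all vehicle animals in both genotypes, at -0.28 to -0.10 in WT CMP013 livers against -0.04 to 0.04 in WT vehicle livers, and at -0.38 to -0.15 in PXR-KO CMP013 livers against -0.08 to 0.12 in PXR-KO vehicle livers. The log2 fold changes were -0.20 for WT and -0.23 for PXR-KO mice, and neither passed (limma adjusted p = 0.103 and 0.166). Groups that do not overlap were found for 14.7% of all probe sets for WT and 7.57% for PXR-KO mice. Of 12 folate one-carbon genes, 2 rose and 0 fell in WT mice, 0 passed in PXR-KO mice, and 3 responses were higher in WT mice. The shares over all genes were 17.2% in WT mice (9.36% higher), 4.61% in PXR-KO mice and 7.12% for a higher response in WT mice. Mthfd2, a mitochondrial one-carbon enzyme, rose by 0.75 in WT mice (limma adjusted p = 0.00239) and had -0.18 in PXR-KO mice (adjusted p = 0.711), a difference of 0.93 (adjusted p = 0.0308).

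Aldh9a1 (chr1:167349963-167368530) makes the trimethylaminobutyraldehyde dehydrogenase of carnitine synthesis, which also acts on aminoaldehydes. On 1436689_a_at it ranged from -0.17 to 0.09 in WT CMP013 livers, against -0.06 to 0.08 in WT vehicle livers, and from -0.19 to 0.05 in PXR-KO CMP013 livers, against -0.10 to 0.06 in PXR-KO vehicle livers. These groups overlapped, with log2 fold changes of -0.04 in WT mice (95% interval -0.21 to 0.14) and -0.10 in PXR-KO mice (95% interval -0.28 to 0.08). The second probe set, 1437398_a_at, gave 0.01 in WT and -0.27 in PXR-KO mice (limma adjusted p = 0.943 and 0.292). Of the 4 carnitine genes, Slc22a5, the carnitine importer, rose by 0.56 in WT mice (limma adjusted p = 0.0247) and had 0.17 in PXR-KO mice (adjusted p = 0.665). No other passed in either genotype, where 17.2% of all genes passed in WT and 4.61% in PXR-KO mice.

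In PXR-KO mice limma called 0 of the 10 genes, and 0 had an unadjusted p under 0.05, where 4.61% of all genes passed (2.5% higher, 2.11% lower). Of the 17 probe sets, 0 passed and 3 had an unadjusted p under 0.05, where 3.65% of all probe sets passed (2.12% higher, 1.54% lower). The median log2 fold change of the 10 genes was -0.08, against -0.016 over all genes. Chosen after the values were seen, a pattern ran across the treated PXR-KO animals: replicates 3 and 5 held the 2 highest values in 8 of the 10 genes, all but Aldh2 and Aldh3a2, and replicate 1 held the lowest in 8. The same 2 animals held the 2 highest values of the group at 12.1% of all probe sets. Over the whole array their log2 ratios had SDs of 0.467 and 0.498, against 0.556 to 0.568 in replicates 1, 2 and 4. How often replicate 1 was lowest over all probe sets was not counted. Members measured in 1 animal share its liver and array, so the 8 genes are not 8 separate observations.

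The test of the difference between the responses passed for 2 of the 10 genes, both higher in WT mice, where 13.2% of all genes passed (7.12% higher, 6.1% lower). Among the 17 probe sets these 2 were the ones that passed, where 11% of all probe sets did (5.47% higher, 5.49% lower). For the other 8 genes it did not pass. The upper ends of the 95% intervals of the difference were 0.77 to 1.18 for Aldh1b1, Aldh1l1, Aldh3a2 and Aldh4a1. They were -0.03 to 0.27 for Aldh2, Aldh6a1, Aldh8a1 and Aldh9a1. The interval of Aldh6a1 was wholly negative and that of Aldh1b1 wholly positive. In limma 4 of the 10 differences had an unadjusted p under 0.05. The median difference was 0.21 over the 10 genes and 0.012 over all genes. Because the WT arm enters both the WT result and the difference, these are not separate evidence.

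The other 10 mouse aldehyde dehydrogenases on the array, each by 1 probe set, gave 1 that rose and 1 that fell in WT mice. In PXR-KO mice 0 rose and 1 fell. The shares over all genes that passed were 17.2% in WT and 4.61% in PXR-KO mice. Aldh18a1, which makes pyrroline carboxylate synthase, the first enzyme of proline and ornithine synthesis from glutamate, rose by 0.80 in WT mice (SE 0.153, limma adjusted p = 0.00723) and had -0.28 in PXR-KO mice (adjusted p = 0.331). The difference was 1.08 (adjusted p = 0.00318). These values are for 1415836_at, where treated PXR-KO replicate 5 lay at -0.81 and the others at -0.29 to -0.06. On 1435855_x_at and 1437325_x_at treated WT animals were also above all WT vehicle animals, and on 1437333_x_at and 1437620_x_at these groups overlapped. Aldh16a1, an unusual member of the family in which the mammalian protein lacks the catalytic cysteine, had -0.56 in WT mice (limma adjusted p = 0.0012), with 0.35 in knockouts (adjusted p = 0.0783). All 5 treated animals were below all vehicle animals in WT mice and above them in PXR-KO mice, and the difference was -0.91 (adjusted p = 3.69e-05). On its second probe set, 1447372_at, treated WT animals were also below all vehicle animals, while the PXR-KO groups overlapped. Aldh5a1, the succinate semialdehyde dehydrogenase of GABA breakdown, fell in PXR-KO mice, with a log2 fold change of -0.59 (limma adjusted p = 0.03), and had -0.29 in WT mice (adjusted p = 0.058). Its difference of 0.30 did not pass (limma adjusted p = 0.198). Aldh3a1, which is known as an inducible enzyme, had -0.26 in WT mice and 0.07 in PXR-KO mice (limma adjusted p = 0.436 and 0.856). Aldh7a1 had -0.0023 in WT mice on 1460167_at (limma adjusted p = 0.989), but its probe sets disagreed. On 1415902_at it was -1.24 to -0.62 in WT CMP013 livers and -0.76 to 0.27 in WT vehicle livers. On 1448137_at these ranges were -0.74 to -0.24 and -0.28 to 0.35, so both probe sets read lower with groups that overlapped.

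**Figure D4:**
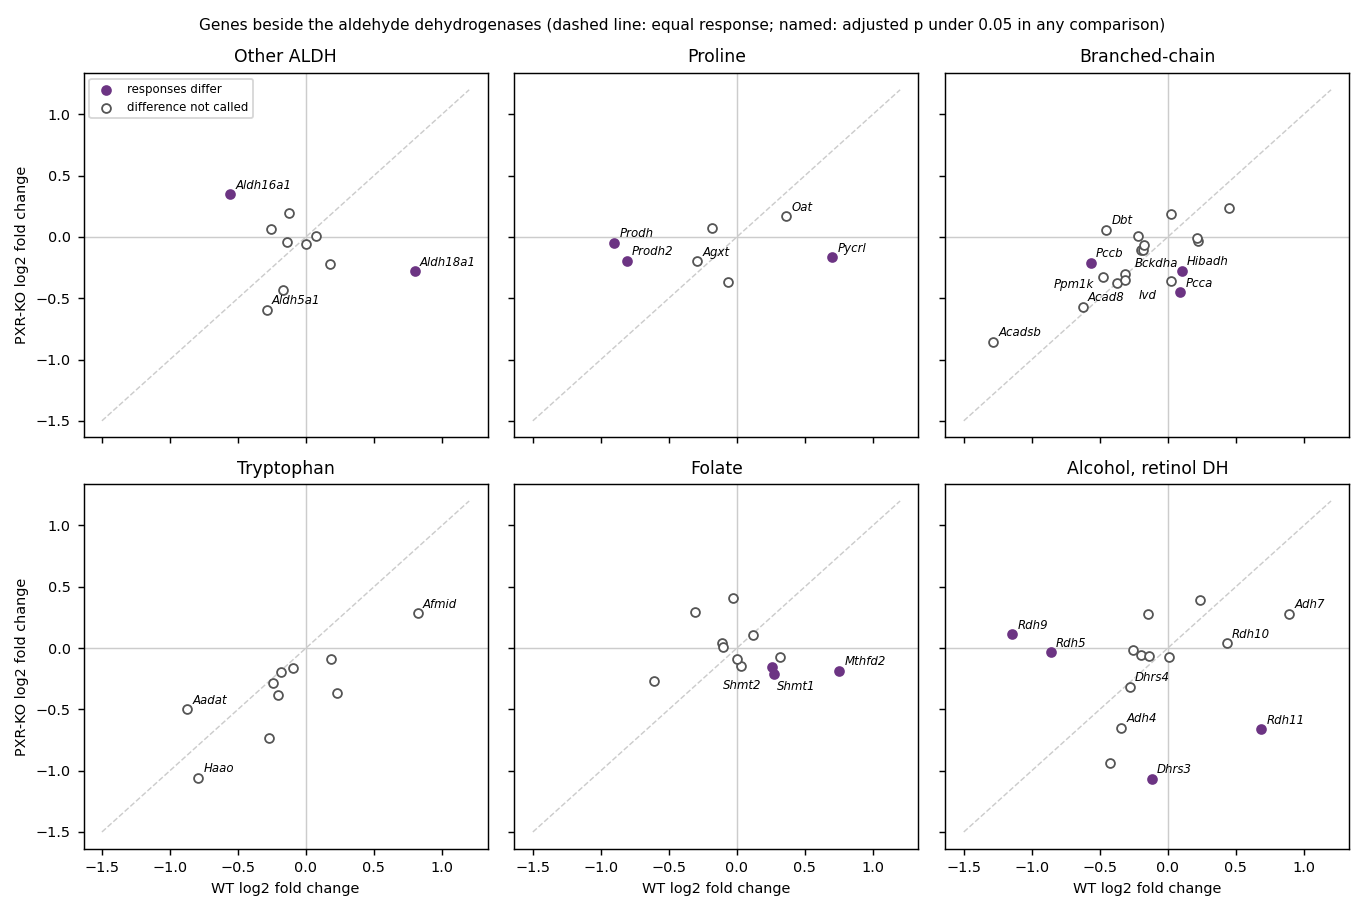
Log2 fold change under CMP013 in WT mice (horizontal axis) and PXR-KO mice (vertical axis) for genes of 6 lists around the aldehyde dehydrogenases, 1 point per gene, with filled points where the responses differ at limma adjusted p under 0.05 and a dashed line of equal response. Aldh18a1 (0.80 for WT and -0.28 for PXR-KO mice) and Aldh16a1 (-0.56 in WT and 0.35 in PXR-KO mice) lie on opposite sides of the line.

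Among 12 other enzymes that clear carbonyls or are related to such enzymes, 4 rose and 2 fell in WT mice. In PXR-KO mice 1 rose and 1 fell. The shares over all genes were 17.2% in WT and 4.61% in PXR-KO mice. Their log2 fold changes in WT mice reached further than those of the 10 genes, which lay between -0.32 and 0.82. Cbr3, a carbonyl reductase, rose by 4.58 in WT mice (limma adjusted p = 3.24e-05) and by 1.17 in PXR-KO mice (adjusted p = 0.0249), a difference of 3.41 (adjusted p = 2.99e-05). Akr1d1, on the list by its family, makes the steroid reductase of bile acid synthesis. It rose by 1.47 in WT mice (limma adjusted p = 3.53e-05) and had 0.0024 in PXR-KO mice (adjusted p = 0.995). Aldehyde oxidases moved in both directions in WT mice, Aox1 by 1.31 (limma adjusted p = 0.000111) and Aox3 by -1.60 (adjusted p = 0.000327). In PXR-KO mice these were 0.35 and -0.64, neither of which passed (limma adjusted p = 0.294 and 0.0856).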

How the data were processed

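Liver RNA of 20 mice was profiled on Affymetrix Mouse430_2 arrays. The values, log10 ratios that the authors computed with Rosetta Resolver 7.2, divide each animal by the mean of the 5 vehicle animals of its genotype. These were kept as normalized and multiplied by 3.32 to give log2. Over the member probe sets the mean ratio of the vehicle animals was 0.979 to 1.01 (WT) or 0.936 to 1.00 (PXR-KO). Intensities and detection calls were not used here, so dim probe sets were kept, and the number of arrays limits the precision. p-values rest on the spread between the animals of a group, with limma drawing the variance of each probe set toward that of all probe sets. Genes with a small spread, such as Aldh1a1 in WT mice, thus got a larger error than their own animals give.

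CMP013 was tested against vehicle with limma 3.58.1 in R 4.3.3 (lmFit, eBayes, Benjamini-Hochberg over 45037 probe sets, adjusted p under 0.05) on the 10 arrays of a genotype, and the difference of responses (WT minus PXR-KO) on all 20. All members and all their probe sets are named. A gene is represented by the probe set naming it alone, with IDs lacking _s_, _x_ or _a_ taken first, then with the smallest SD within the vehicle groups. Of the other lists, other aldehyde dehydrogenases, up to 4 genes with the smallest adjusted p and genes next to a member in its reactions may be named. Of the probe sets 34945 name 1 gene, 932 several and 9160 none. Members and lists were chosen with earlier results of these data known. On simulated data with log2 changes of 1 and 2 among 45037 probe sets, 56% and 82% were recovered for WT, 51% and 86% for PXR-KO, and 39% and 82% for the difference. Only 100 probe sets were changed per size, while 14.4% passed in the real WT data, and all changes of the members were smaller. The rates therefore do not give the recovery of changes in these genes. Alternatives were quantile normalization, a common median, array weights, trend and robust variances, one fit, a replicate block, gene means, the largest fold change, 1.25-fold as a size limit, and animals left out. Same-numbered animals correlated at -0.24 to 0.07 (WT) and -0.20 to 0.05 (PXR-KO), so numbers were not taken to pair them. Promoters are from RefSeq (GRCm38.p6) and were aligned with Biopython 1.88. Software was data.table (1.17.8), Python 3.11.15, pandas 2.3.3, numpy 2.4.6, scipy 1.17.1 and matplotlib 3.10.9.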

Additional observations from a re-analysis of the deposited data

Results flagged for a closer look

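The response to CMP013 differed between genotypes for 2 genes by the test of the difference itself. For Aldh1a7 (1418601_at) the difference of the responses (WT minus PXR-KO) was 0.85 on the log2 scale (limma adjusted p = 4.59e-05), and for Aldh1a1 (1416468_at) it was 0.48 (limma adjusted p = 0.00114). Both were called in 27 of 27 alternatives.

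For Aldh2 (1448143_at), PXR-KO CMP013 replicate 5 lay at 0.0567, away from the other 4 treated PXR-KO animals at -0.12 to -0.07. Its gap to the nearest of them was 0.712 of the range of the group, just past the limit of 0.71. It was the 1 such value in 68 groups of 5 animals tested, and chance gives about 1 in 20 groups.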

How the results depend on the processing

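The number of genes called in WT mice, 4, was 2 after quantile normalization of the log ratios, 2 with a replicate block and 2 without the 4 vehicle animals that stand apart, and 3 to 4 with 1 animal left out. Aldh1a7 and Aldh1b1 kept their call in 18 of 18 alternatives, Aldh1a1 in 15 (adjusted p up to 0.113) and Aldh3a2 in 6 (adjusted p up to 0.307, with all 4 groups in one fit). The block gave adjusted p of 0.0904 for Aldh1a1 and 0.103 for Aldh3a2, and 0 of 5 animals in either genotype correlated best with their own number. No gene was called in PXR-KO mice under any alternative run. The difference was called for 2 genes throughout, except for 3 without PXR-KO CMP013 replicate 5 (2 to 3 with 1 animal left out).

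Some uncalled values changed sign. Aldh6a1 in PXR-KO mice was -0.035 after quantile normalization, -0.0028 with a common median, -0.049 with array weights and -0.11 without the 4 vehicle animals. The difference of Aldh3a2 was -0.041 after quantile normalization. That of Aldh8a1 was 0.0235 after quantile normalization, 0.0036 with array weights and 0.0105 with gene means, and that of Aldh2 was -0.0367 with gene means. With 1 animal left out, Aldh1l1 in WT mice ranged from -0.22 to 0.11. In PXR-KO mice Aldh1a7 ranged from -0.064 to 0.0267, Aldh1b1 from -0.0819 to 0.26 and Aldh6a1 from -0.055 to 0.0542. The differences ranged from -0.17 to 0.25 for Aldh3a2 and from -0.0743 to 0.0078 for Aldh8a1. The causes were not tested.

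Signal over background was not used here, so dim probe sets cannot be told from others. With 5 animals a group, a value that did not pass is not shown to be unchanged.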
